A study of Homo sapiens with 3 samples.

Results

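GAS5, SNHG7, SNHG12 and SNHG19 are non-coding genes whose introns carry small nucleolar RNAs (snoRNAs). Their transcripts were followed here through an RNA immunoprecipitation of Flag-tagged focal adhesion kinase (FAK). The members were chosen by gene, as the 9 transcripts listed under these 4 names (MSTRG.2662.1 to MSTRG.2662.4 for GAS5, MSTRG.32003.1 for SNHG7, MSTRG.706.1 to MSTRG.706.3 for SNHG12 and MSTRG.11294.1 for SNHG19), out of 334 lncRNA transcripts at 293 loci. The cells were MDA-MB-231, a human line of triple negative breast cancer labelled p53-mutant, grown in DMEM with 10% serum, and all of them carried a transfected plasmid for Flag-FAK. RNA was retrieved from the lysate with anti-FLAG antibody (the Flag-FAK library) or with normal mouse IgG (the IgG library), and the third library held 10% of the starting RNA (Input). There was 1 library for each condition, so no SD, p-value or test between conditions can be given, and cells without the Flag-FAK plasmid were not part of the comparison. The deposited transcripts are lncRNAs, so the cell line was not checked against protein-coding markers. The study used the Flag-FAK and IgG precipitates to look for lncRNAs associated with FAK.

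In a snoRNA host gene the snoRNAs are cut from the introns of the primary transcript, while the exons are spliced into a second, usually non-coding RNA. SNORD genes make box C/D snoRNAs, which guide ribose methylation, and SNORA genes make box H/ACA snoRNAs, which guide pseudouridylation. Many host genes belong to the terminal oligopyrimidine (TOP) class, whose transcripts start in a run of pyrimidines and respond to growth signals at the level of translation, and several spliced host RNAs, GAS5 among them, are known to be turned over by nonsense-mediated decay.

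All 4 host genes lie on the minus strand. The GAS5 transcripts span chr1:173863901-173867981 in GRCh38 and hold 11 RefSeq snoRNA genes, 10 of them SNORD genes and 1 SNORA103. SNHG7 spans chr9:136724356-136728175 with 2 snoRNA genes, SNORA17A and SNORA17B. SNHG12 spans chr1:28578384-28581858 with 4, namely SNORD99, SNORA61, SNORA44 and SNORA16A. SNHG19 is the shortest, at chr16:2154699-2155352, and holds SNORD60 as its 1 snoRNA gene. The listed transcripts of SNHG7, SNHG12 and SNHG19 begin 9, 15 and 6 bases inside the RefSeq start site, while those of GAS5 begin 1064 bases inside it. For SNHG12 this start site is the one of RefSeq's promoter, and the gene's outermost end lies 1125 bases beyond the listed start. The sequences around the RefSeq start are shown for SNHG7, SNHG12 and SNHG19, whose listed transcripts begin near it, and were read for features that the choice of genes did not use. Each is 75 bases of the GRCh38.p14 minus strand from RefSeq, in the direction of transcription, at chr9:136728155-136728229, chr1:28581844-28581918 and chr16:2155329-2155403. Capitals mark first a match to TATANAA and then the unbroken run of C and T across the start site.

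SNHG7: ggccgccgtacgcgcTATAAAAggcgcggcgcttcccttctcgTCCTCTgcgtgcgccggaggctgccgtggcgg
SNHG12: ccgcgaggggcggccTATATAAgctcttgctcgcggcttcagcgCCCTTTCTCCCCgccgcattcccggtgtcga
SNHG19: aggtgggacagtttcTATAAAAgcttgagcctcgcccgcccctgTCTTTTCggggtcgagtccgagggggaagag

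In all 3 windows the first base of the TATANAA match lay at position -30 relative to the start. The pyrimidine run across the start was 6 bases long in SNHG7, 12 in SNHG12 and 7 in SNHG19. Among 35116 RefSeq promoters, taken from 250 bases before to 50 bases after the start, 9.10% held TATANAA somewhere on either strand, 1.58% held it on the sense strand with its first base between positions -45 and -20, and 12.5% had a pyrimidine run of at least 6 bases across the start. Both features together were found in 0.182% of promoters. The minimum of 6 bases equals the shortest of the 3 runs, so these shares are a background and not a test of the 3 windows. SNHG19 had 1 further match in its promoter, on the opposite strand. The RefSeq promoter of GAS5 held 0 matches on either strand, and its pyrimidine run across the start was 3 bases long. That start site lies 1064 bases before the point where the listed GAS5 transcripts begin. The sequence at that point was not read, so the values for GAS5 do not describe the start of its listed transcripts. These matches describe letters in a window and not a bound site, and the 3 windows are alike although the 3 transcripts differed in the precipitates, as given below. Of 6 other listed genes of this kind that had a RefSeq promoter, 1 (SNHG5) had a sense match before the start, at position -32.

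Reads on the lncRNA transcripts numbered 2056854 in Input, 109658 in the IgG library and 48763 in Flag-FAK. Ribosomal DNA transcripts held between 91.3% and 97.5% of them. Outside ribosomal DNA and 7SK, 13782, 3669 and 1351 reads were left, which sets the precision of every value here. One read was worth nearly the same FPKM (fragments scaled by transcript length and library total) in each pair of libraries, with median ratios of 0.974 for Flag-FAK over IgG, 1.08 for IgG over Input and 1.04 for Flag-FAK over Input. FPKM ratios are therefore close to ratios of reads. Intervals in brackets are exact 95% intervals and cover counting error only, and the deposited whole numbers may be rounded estimates. For a library with 0 reads, a bound given as "at least" uses 3 reads and leaves out the counting error of the other library. The exact interval then allows a somewhat smaller fold.

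Together the 4 hosts held 1447 of the other lncRNA reads in Input (10.5%, 9.99 to 11.02), 365 in IgG (9.95%, 9.0 to 10.96) and 110 in Flag-FAK (8.14%, 6.74 to 9.73). Their joint share was similar in Input and IgG, and its Flag-FAK interval lay below that of Input and overlapped that of IgG. The totals keep loci that are high in the precipitates, and the shares depend on them. One such locus, MSTRG.382, had 267 IgG and 126 Flag-FAK reads and a log2 IgG over Input of 10.1. GAS5, SNHG7, SNHG19 and SNHG12 ranked 3, 6, 12 and 15 by Input FPKM among 80 loci with at least 20 Input reads. All 4 were above the median of those loci, 6.39 FPKM. In the RNA that entered the precipitation they were thus among the more abundant lncRNAs.

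GAS5, first described as a transcript of growth-arrested cells, was the host with the highest FPKM in Input and in both precipitates. It had 758 reads and 131 FPKM in Input, 314 reads and 58.7 FPKM in IgG, and 46 reads and 8.16 FPKM in Flag-FAK. Its share of the other lncRNA reads was 5.50% (5.13 to 5.89) in Input, 8.56% (7.67 to 9.51) in IgG and 3.40% (2.50 to 4.52) in Flag-FAK. The IgG share was the highest, and its interval overlapped neither of the others. SNHG7, a host of box H/ACA snoRNAs, showed another order. It had 485 reads and 42.3 FPKM in Input, 25 reads and 2.37 FPKM in IgG, and 44 reads and 4.00 FPKM in Flag-FAK. Its share was 3.52% (3.22 to 3.84) in Input, 0.681% (0.441 to 1.00) in IgG and 3.26% (2.38 to 4.35) in Flag-FAK. The intervals of Input and Flag-FAK overlapped, and the IgG share lay below both.

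SNHG12, which hosts snoRNAs of both classes, followed the order of SNHG7 at a lower level. It had 136 reads and 14.7 FPKM in Input, 9 reads and 0.879 FPKM in IgG, and 20 reads and 1.87 FPKM in Flag-FAK. Its share was 0.987% (0.829 to 1.17) in Input, 0.245% (0.112 to 0.465) in IgG and 1.48% (0.907 to 2.28) in Flag-FAK, so that IgG was again below both. SNHG19, the host of SNORD60, was listed at 0 in Flag-FAK. It had 68 reads and 16.1 FPKM in Input and 17 reads and 4.40 FPKM in IgG. Its share was 0.493% (0.383 to 0.625) in Input and 0.463% (0.270 to 0.741) in IgG. For 0 of 1351 reads in Flag-FAK the floor of 3 reads is a share of 0.222%, and the exact interval reaches 0.273%. GAS5 and SNHG7, 8.56% and 0.681% of the IgG reads, thus took shares of Flag-FAK reads whose intervals overlapped.

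**Figure D1:**
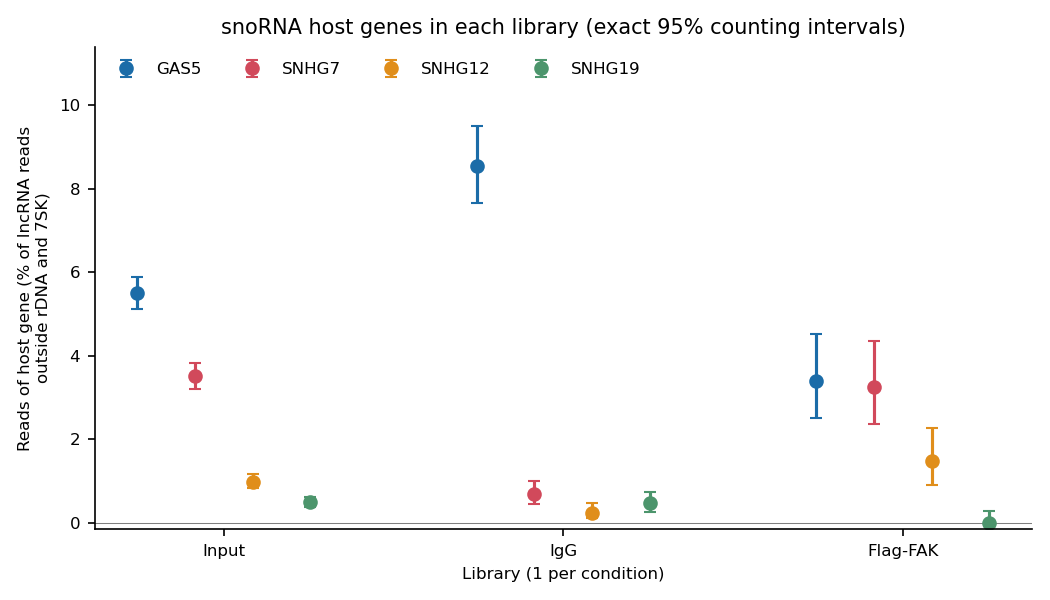
Share of the lncRNA reads outside ribosomal DNA and 7SK held by each host gene in each library (y axis, percent; x axis, library; points are shares and bars exact 95% counting intervals). In IgG GAS5 stands at 8.56% and SNHG7 at 0.681%, while in Flag-FAK they stand at 3.40% and 3.26%.

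Retention was first taken as IgG over Input, a transcript's FPKM in the IgG library over its FPKM in Input. Such a ratio compares scaled levels and is not the part of the RNA that stayed on the beads. GAS5 was retained at 0.449 (0.393 to 0.513), SNHG19 at 0.273 (0.150 to 0.470), SNHG12 at 0.0599 (0.0268 to 0.117) and SNHG7 at 0.0560 (0.0359 to 0.0836). The hosts fell into a higher pair, GAS5 and SNHG19, and a lower pair, SNHG7 and SNHG12, whose intervals did not meet. Among the 80 loci GAS5 ranked 13, SNHG19 ranked 23, SNHG12 ranked 42 and SNHG7 ranked 44, with 26 loci at 0 and a median of 0.0838. All 4 hosts were below an FPKM ratio of 0.5, as were 79.9% of 284 loci, and 0 were above 2, against 12.7%, so this count by itself says nothing particular of the hosts. It also depends on the scaling: with FPKM rescaled to a common total over all listed transcripts (TPM), GAS5 stood at 2.76 (2.41 to 3.15) and SNHG19 at 1.68 (0.923 to 2.88).

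In Flag-FAK over Input the order was different. SNHG12 was retained at 0.127 (0.0753 to 0.204), SNHG7 at 0.0945 (0.0678 to 0.129) and GAS5 at 0.0625 (0.0454 to 0.0842). SNHG19 was at least 21.8-fold lower in Flag-FAK than in Input at the floor of 3 reads, with an upper interval end of 0.0579. The intervals of neighbours in this order overlapped, those of GAS5 and SNHG19 included, and 47 of the 80 loci were at 0 with SNHG19. SNHG12 ranked 8, SNHG7 ranked 14 and GAS5 ranked 23. All 4 hosts were again below 0.5, against 92.9% of 267 loci, and 0 were above 2, against 4.49%. With TPM the ratios were 0.878 (0.637 to 1.18) for GAS5, 1.33 (0.952 to 1.81) for SNHG7 and 1.79 (1.06 to 2.87) for SNHG12, so that none of these was below 0.5 and SNHG7 and SNHG12 turned direction.

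In Flag-FAK over IgG, the comparison the study was built on, GAS5 and SNHG19 were lower in the Flag precipitate and SNHG7 and SNHG12 were not. GAS5 stood at a ratio of 0.139 (0.0998 to 0.190), or 7.19-fold lower. SNHG19 was at least 5.82-fold lower at the floor of 3 reads, with an upper interval end of 0.236. SNHG7 stood at 1.69 (1.01 to 2.88), an interval that only just clears 1. SNHG12 stood at 2.12 (0.924 to 5.30), which holds 1. With TPM SNHG7 was at 3.86 (2.31 to 6.59) and SNHG12 at 4.86 (2.12 to 12.1), both clear of 1, while GAS5 stayed below 1 at 0.318 (0.228 to 0.435). Of the 4 hosts 1 (SNHG12) was above a ratio of 2, against 12.6% of 119 loci, and 2 were below 0.5, against 77.3% of loci. The 3 contrasts share libraries in pairs, so these values are not independent of each other.

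Ratios of FPKM depend on how the libraries are scaled, and 77.3% of loci were below 0.5 in Flag-FAK over IgG. The ratio of 2 hosts' read ratios between the same libraries is free of that scaling and was taken for all 6 pairs of hosts in each of the 3 contrasts, 18 comparisons in all. The interval lay clear of 1 in 12 of them, and in 8 when the level was adjusted for 18 comparisons. By contrast this was 4 of 6 pairs in Flag-FAK over IgG (4 after adjustment), 4 of 6 in IgG over Input (3 after adjustment) and 4 of 6 in Flag-FAK over Input (1 after adjustment).

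SNHG7 exceeded GAS5 in Flag-FAK over IgG by 12.0-fold (6.46 to 22.4). In IgG over Input, GAS5 exceeded SNHG7 by 8.04-fold (5.24 to 12.8). In Flag-FAK over Input, the contrast that leaves the IgG library out, SNHG7 stood 1.49-fold above GAS5, with an interval of 0.950 to 2.35 that holds 1. The distance between GAS5 and SNHG7 was thus large in both contrasts that use the IgG library, and was not separable from 1 in the contrast without it.

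SNHG12 and GAS5 differed in the same way in the contrasts with IgG and more in the one without it. SNHG12 exceeded GAS5 by 15.2-fold (6.09 to 39.8) in Flag-FAK over IgG, and GAS5 exceeded SNHG12 by 6.26-fold (3.14 to 14.1) in IgG over Input. For Flag-FAK over Input SNHG12 stood 2.42-fold above GAS5 (1.31 to 4.33), an interval that reached 1 after adjustment. SNHG7 and SNHG12 were not separable in any contrast. The ratio of SNHG7 to SNHG12 was 0.792 (0.274 to 2.17) in Flag-FAK over IgG, 0.779 (0.342 to 1.94) in IgG over Input and 0.617 (0.343 to 1.14) in Flag-FAK over Input. The first of these intervals allows SNHG12 to exceed SNHG7 by up to 3.64-fold, so these values do not show that the hosts were retained alike.

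SNHG19 was set apart from SNHG7 and SNHG12 in all 3 contrasts. In IgG over Input it exceeded SNHG7 by 4.85-fold (2.32 to 9.87) and SNHG12 by 3.78-fold (1.49 to 10.1), the latter no longer clear of 1 after adjustment. In Flag-FAK over IgG the 0 reads of SNHG19 put SNHG7 at least 9.97-fold and SNHG12 at least 12.6-fold above it at the floor of 3 reads, with lower interval ends of 6.39 and 6.76. GAS5 and SNHG19 were not separable in IgG over Input (1.66-fold, 0.944 to 3.06) or in Flag-FAK over IgG (lower end 0.580). In Flag-FAK over Input the interval of GAS5 over SNHG19 began at 1.04, and no longer cleared 1 after adjustment. The same interval began at 1.55 for SNHG7 over SNHG19 and at 2.37 for SNHG12 over SNHG19, and after adjustment only the latter still cleared 1.

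Set against all other lncRNA transcripts outside ribosomal DNA and 7SK in the same way, SNHG7 was 4.69-fold (2.79 to 8.02) and SNHG12 5.92-fold (2.57 to 14.8) higher in Flag-FAK over IgG. In IgG over Input SNHG7 stood at 0.192 (0.123 to 0.288) and SNHG12 at 0.247 (0.110 to 0.484) of the other transcripts. Both intervals held 1 in Flag-FAK over Input, at 0.902 (0.643 to 1.24) for SNHG7 and 1.46 (0.862 to 2.36) for SNHG12. Relative to the other lncRNAs, both hosts were thus set apart where the IgG library was used, by fewer reads in it, and were not separable from the rest in Flag-FAK against Input. GAS5 stood at 0.390 (0.278 to 0.537) in Flag-FAK over IgG, 1.55 (1.34 to 1.78) in IgG over Input and 0.603 (0.435 to 0.818) in Flag-FAK over Input. SNHG19 had an upper interval end of 0.646 in Flag-FAK over IgG and of 0.555 in Flag-FAK over Input, and stood at 0.933 (0.513 to 1.61) in IgG over Input. GAS5 was the 1 host whose interval in IgG over Input lay above the other transcripts.

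GAS5 was listed as 4 transcripts that differed by at most 1 base in their outer ends. MSTRG.2662.1 and MSTRG.2662.4 carried one database name (NONHSAT007663.2), and MSTRG.2662.2 and MSTRG.2662.3 another (NONHSAT007662.2). In Input MSTRG.2662.4 led with 313 of 758 reads (41.3%, 37.8 to 44.9), before MSTRG.2662.1 with 239 (31.5%, 28.2 to 35.0). In IgG MSTRG.2662.1 led with 161 of 314 reads (51.3%, 45.6 to 56.9), and MSTRG.2662.4 had 52 (16.6%, 12.6 to 21.1). In Flag-FAK MSTRG.2662.1 held 46 of 46 reads (100%, 92.3 to 100). The leading transcript therefore changed from MSTRG.2662.4 to MSTRG.2662.1 between Input and both precipitates. The other 2 transcripts changed less between Input and IgG. MSTRG.2662.2 had 177 reads in Input (23.4%, 20.4 to 26.5), 82 in IgG (26.1%, 21.3 to 31.3) and 0 in Flag-FAK, and MSTRG.2662.3 had 29 (3.83%, 2.58 to 5.45), 19 (6.05%, 3.68 to 9.29) and 0.

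Taken by database name, the share of NONHSAT007663.2 was 72.8% (69.5 to 76.0) in Input and 67.8% (62.4 to 73.0) in IgG, and that of NONHSAT007662.2 was 27.2% (24.0 to 30.5) and 32.2% (27.0 to 37.6). These intervals overlapped, so the shift between Input and IgG lay between the 2 transcripts of NONHSAT007663.2. By transcript, IgG over Input was 0.737 (0.599 to 0.903) for MSTRG.2662.1, 0.723 (0.383 to 1.33) for MSTRG.2662.3, 0.506 (0.384 to 0.661) for MSTRG.2662.2 and 0.179 (0.131 to 0.241) for MSTRG.2662.4. Flag-FAK over IgG was 0.279 (0.196 to 0.389) for MSTRG.2662.1, and MSTRG.2662.2, MSTRG.2662.3 and MSTRG.2662.4 were at least 28.1-fold, 6.50-fold and 17.8-fold lower. All 4 GAS5 transcripts were thus below 0.5 in Flag-FAK over IgG, as were 77% of 135 transcripts. How reads were divided between these overlapping transcripts was not tested.

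SNHG12 was listed as 3 transcripts under 1 database name (SNHG12:3), of which MSTRG.706.3 spans only chr1:28580330-28581858, the part nearest the start site. In Input MSTRG.706.1 had 79 of 136 reads (58.1%, 49.3 to 66.5), MSTRG.706.2 had 22 (16.2%, 10.4 to 23.5) and MSTRG.706.3 had 35 (25.7%, 18.6 to 33.9). In IgG they had 4, 1 and 4 of 9 reads, which gives MSTRG.706.3 a share of 44.4% (13.7 to 78.8). In Flag-FAK MSTRG.706.3 held 20 of 20 reads (100%, 83.2 to 100). Every SNHG12 read in the Flag precipitate was assigned to the short transcript, which held a minority of the Input reads. Its level was 3.05 FPKM in Input, 0.306 FPKM in IgG and 1.87 FPKM in Flag-FAK. Its ratio was 6.10 (1.63 to 19.6) in Flag-FAK over IgG, on 20 against 4 reads, and 0.612 (0.335 to 1.09) in Flag-FAK over Input. It was the 1 member above 2 in Flag-FAK over IgG, of 7 members with at least 0.5 FPKM in either precipitate, against 14.1% of 135 transcripts. It met that minimum only through Flag-FAK, the library where it was high, so the count adds no support to its ratio. The value of SNHG12 as a gene rested on MSTRG.706.3, because MSTRG.706.1 and MSTRG.706.2 had no Flag-FAK reads and were at least 25.3-fold and 7.06-fold lower in Flag-FAK than in Input.

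The SNHG7 locus also held MSTRG.32003.2 (NONHSAT135575.2), which was not among the members. It had 143 reads in Input and 0 in both IgG and Flag-FAK, so that all precipitate reads of this locus lay on MSTRG.32003.1 as well. In Flag-FAK each of the 3 host loci with more than 1 listed transcript thus had its reads on 1 transcript. Of 6 other such loci with at least 10 Flag-FAK reads, 0 did so, and their leading transcript held 75.3% at the median. Among these 6 was SNHG1, itself a snoRNA host, whose 17 Flag-FAK reads lay on 3 transcripts, with 76.5% on the leading one. Reads on 1 transcript were thus not common to all snoRNA hosts. In IgG 3 of 13 other loci had all reads on 1 transcript, and in Input 1 of 22. GAS5, SNHG12 and SNHG7 were not all alike in IgG, where GAS5 had reads on all 4 of its transcripts.

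Over the members, 5 of 7 at the minimum were below 0.5 in Flag-FAK over IgG, against 77% of 135 transcripts. The middle one of these 7 was MSTRG.2662.3, at a log2 ratio of -5.28 on 0 Flag-FAK reads. The median of the 135 transcripts was -3.63. Over all 9 members, MSTRG.706.1 and MSTRG.706.2 below the minimum included, the median was -2.55, which is not comparable with -3.63. In IgG over Input 6 of 9 were below 0.5 and 0 above 2, against 78.8% and 13.4% of 321 transcripts, with a median of -2.47 against -4.36. In Flag-FAK over Input 8 of 9 were below 0.5 and 0 above 2, against 92.7% and 5.33% of 300, with a median of -5.74 against -4.66. As a count the members were close to the background in each contrast, and the differences were between hosts and between transcripts of a host.

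The ratio of reads to FPKM is proportional to the effective length of a transcript and was set against its genomic span, as a percentage of the highest value among 94 transcripts with at least 20 Input reads. Its median was 20.5%, and 13 of the 94 were at 75% or more. The GAS5 transcripts lay between 14.3% and 15.6%, SNHG7 at 31.7%, MSTRG.706.1 at 26.2% and MSTRG.706.2 at 27.2%. Low values are those of RNAs much shorter than their span, as spliced RNAs are. SNHG19 lay at 68.1%, and MSTRG.706.3 at 79.3%. In Flag-FAK MSTRG.706.3 lay at 85.2% of the highest value among transcripts with at least 20 reads in that library. This is another reference than in Input, so the rise is not comparable. The span of MSTRG.706.3, 1529 bases, contains SNORA44 and SNORA16A whole, which make up 266 bases or 17.4% of it. Whether reads assigned to MSTRG.706.3 came from introns or from the snoRNAs was not tested.

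Other genes on the same spans may share reads with the hosts, since the sources used here do not state whether strand was used in counting. DIPK1B on the plus strand overlaps 387 bases of the SNHG7 span, and LOC124900276, a protein-coding model on the minus strand, covers all 3820 bases of it. TRNAU1AP on the plus strand overlaps 162 bases of the SNHG12 span at the end that MSTRG.706.3 does not reach. GAS5-AS1 shares 41 bases with GAS5. No other gene than the host and its snoRNA was found on the SNHG19 span.

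The deposited coding scores set SNHG7 apart from the other hosts. By CPAT, which gives a coding probability, MSTRG.32003.1 stood at 0.293, rank 11 of 334, against a median of 0.0270 and a highest value of 0.360. The SNHG12 transcripts lay between 0.0769 and 0.0779, GAS5 between 0.00562 and 0.00825 and SNHG19 at 0.00151. By CPC score SNHG7 stood at -0.372, rank 25, and the other members between -1.31 and -0.985, against a median of -1.02. Of these MSTRG.706.3 ranked 147 and the rest between 253 and 310, in the lower part of the list. SNHG7 is also the host whose span is covered by a protein-coding gene model.

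A list of 27 further genes known as snoRNA hosts or of the same family was compared, of which 8 were listed in the files. CYTOR, a cancer lncRNA on this list, had no snoRNA gene in its RefSeq span. SNHG8, SNHG29, SNHG30 and CYTOR had 41, 4, 15 and 24 reads in Input and 0 in both precipitates. SNHG1, a host of many SNORD genes, had 133 Input, 67 IgG and 17 Flag-FAK reads, a Flag-FAK over IgG ratio of 0.208 (0.115 to 0.359). SNHG5 had 55, 36 and 0 reads, at least 12.3-fold lower in Flag-FAK than in IgG. SNHG6 had 88, 114 and 8 reads, with ratios of 1.46 (1.10 to 1.95) in IgG over Input and 0.0603 (0.0254 to 0.123) in Flag-FAK over IgG. SNHG1, SNHG5 and SNHG6 thus lay below 1 in Flag-FAK over IgG, on the side of GAS5 and SNHG19. SNHG15 had 167, 8 and 5 reads, with ratios of 0.0460 (0.0195 to 0.0927) in IgG over Input and 0.561 (0.144 to 1.94) in Flag-FAK over IgG. It was low in IgG as SNHG7 and SNHG12 were, but at 0.0258 (0.00826 to 0.0614) of Input in Flag-FAK its interval lay below those of both.

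Of the 4 further hosts with at least 0.5 FPKM in either precipitate, 3 were below 0.5 and 0 above 2 in Flag-FAK over IgG, which is near the 77.3% and 12.6% of all loci and sets these genes apart from no others. Summed over all 8 genes, there were 527 Input, 225 IgG and 30 Flag-FAK reads, most of them from SNHG1, SNHG5, SNHG6 and SNHG15. Against this sum GAS5 was not separable in Flag-FAK over IgG (1.10-fold, 0.656 to 1.86), in IgG over Input (0.970, 0.787 to 1.20) or in Flag-FAK over Input (1.07, 0.649 to 1.77). SNHG7 stood 13.2-fold (6.78 to 25.8) and SNHG12 16.7-fold (6.45 to 44.9) above it in Flag-FAK over IgG. In Flag-FAK over Input SNHG12 was still 2.58-fold (1.34 to 4.86) above the sum, while SNHG7, at 1.59-fold, had an interval of 0.962 to 2.67. The sum is not one gene's level, and it hides the spread just given.

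FAISL (VPS9D1-AS1), the lncRNA that the study went on to examine, had 160 Input, 13 IgG and 20 Flag-FAK reads. Its own Flag-FAK over IgG ratio was 1.52 (0.719 to 3.32), an interval that holds 1, and 3.48 (1.65 to 7.61) with TPM. SNHG7 and SNHG12 were not separable from FAISL in Flag-FAK over IgG, at 1.14-fold (0.442 to 2.90) and 1.44-fold (0.448 to 4.76) of its ratio. Nor were they in Flag-FAK over Input, at 0.726 (0.405 to 1.34) and 1.18 (0.574 to 2.41). GAS5 exceeded FAISL by 5.10-fold (2.84 to 9.93) in IgG over Input, and lay 10.5-fold (4.57 to 24.4) below it in Flag-FAK over IgG. These reads are only a part of the study's evidence on FAISL, which also included immunoprecipitation followed by PCR, with and without cross-linking. The study also took the top lncRNAs of its screen to immunoprecipitation followed by PCR, and SNHG7 was among the lncRNAs for which it listed PCR primers. Its text does not give a PCR result for SNHG7. RN7SK, the abundant nuclear 7SK RNA, had a Flag-FAK over IgG ratio of 0.556 (0.531 to 0.582), between GAS5 and SNHG7.

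The pattern of each host was placed among 71 loci, the hosts included, with at least 5 reads in each of at least 2 libraries, by distance in the plane of log2 IgG over Input and log2 Flag-FAK over IgG (FPKM + 0.1). Both axes use the IgG library, so a locus low in IgG moves left and up at once. SNHG7 stood at -4.10 and 0.73, and SNHG12 at -3.92 and 1.01. SNHG7 was the nearest locus to SNHG12, at a distance of 0.33. For SNHG7 the nearest were NONHSAT124549.2 on chromosome 7 (0.11) and PICSAR, a lncRNA known from squamous cell carcinoma (0.28). PICSAR had 275 Input, 11 IgG and 18 Flag-FAK reads, in the order of SNHG7. GAS5 stood at -1.15 and -2.83, and its nearest loci were ENST00000610809.1 at ANXA8 (0.47) and NONHSAT129028.2 (0.60). SNHG19 stood at -1.85 and -5.49 with no locus closer than 0.90, where HEATR6-DT and WFDC21P lie. Its second value rests on 0 Flag-FAK reads and on the 0.1 added, so it is a position and not a measured fold.

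**Figure D2:**
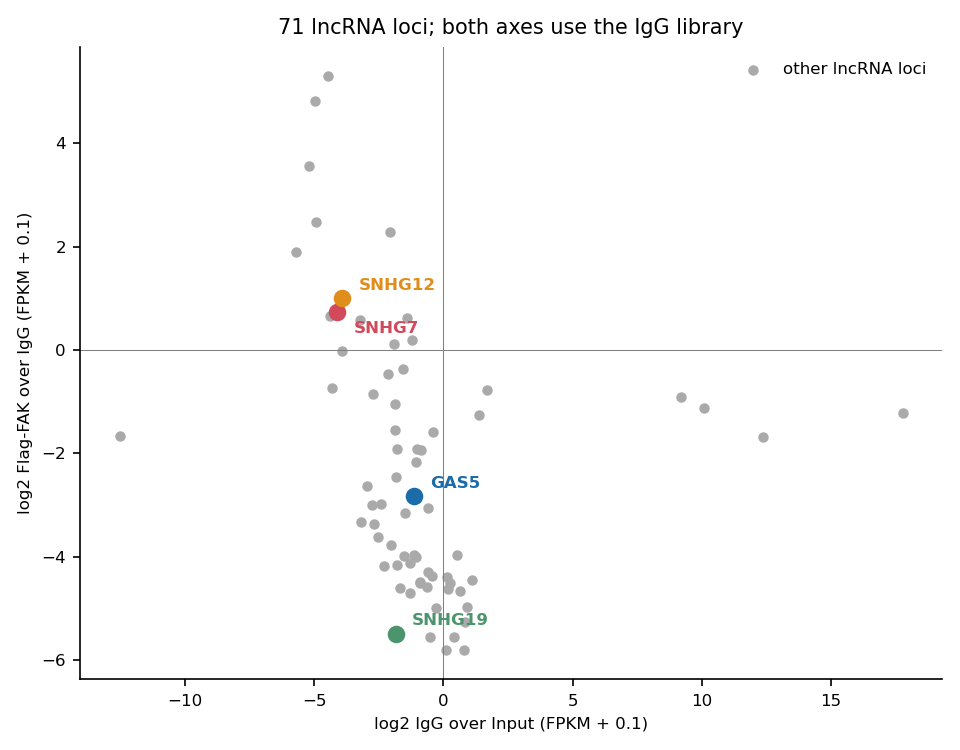
Each of 71 lncRNA loci by log2 IgG over Input (x axis) and log2 Flag-FAK over IgG (y axis), both of FPKM + 0.1, with the 4 hosts coloured and ribosomal DNA loci among the grey points. SNHG7 and SNHG12 lie side by side 0.33 apart, and GAS5 lies lower and to the right, at -1.15 and -2.83.

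The files list predicted target genes for each transcript. GAS5 had 8 targets. SNHG7 had 14, the SNHG12 transcripts 3 or 4, with RCC1 and TAF12 among them, and SNHG19 had 10. For the members 0 of the predicted targets were annotated to the focal adhesion pathway in which FAK acts. The share of such targets over all listed transcripts was not computed, so this count says nothing particular of the hosts.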

How the data were processed

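RNA from Input, IgG and Flag-FAK was sequenced as 1 library each, and samples were grouped by the labels. The authors deposited read counts and FPKM per lncRNA transcript, with coding scores and the CPAT coding probability as a fraction. Per the submitters' processing notes StringTie and GRCh38 were used, and the aligner, the counting step and strandedness are not given in the sources used here. Each file has 7007 lines because a transcript is repeated for each predicted target, and each transcript was used once. FPKM and reads were summed per gene. Ratios are of FPKM, and log2 ratios use FPKM + 0.1. Intervals are exact (Clopper-Pearson for shares and ratios, conditional for ratios of ratios), on the reads, with those of ratios put on the FPKM scale by the FPKM per read. The intervals of ratios and of ratios of ratios were tested on simulated independent counts. That simulation held neither the FPKM scaling nor the division of reads between overlapping transcripts. Counts of ratios above 2 or below 0.5 use transcripts or loci with at least 0.5 FPKM in either library. The total over which reads were scaled to FPKM is not stated, and a library with more ribosomal RNA leaves fewer reads for the hosts. RefSeq (GRCh38.p14) gave genes on spans and start windows. The genes named were the members, a list of 27 hosts, FAISL, RN7SK and the 2 loci nearest each host. The members and lists were chosen with earlier results of these data known. Alternatives were other pseudocounts (0.01 and 1), rescaling to a total of 1000000 (TPM), also without ribosomal DNA and 7SK, reads plus 1, no minimum, FPKM in place of reads between hosts and in shares, and the transcript with the most Input reads alone. The second SNHG7 transcript and the adjusted intervals were added after seeing the data. Statistics used scipy 1.17.1 with numpy 2.4.6, tables pandas 2.3.3 and plots matplotlib 3.10.9, under Python 3.11.15.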

Additional observations from a re-analysis of the deposited data

How the results depend on the processing

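No paired analysis was possible because there was 1 library per group. Values are log2 ratios. Rescaling to TPM adds 1.19 to Flag-FAK over IgG, 2.62 to IgG over Input and 3.81 to Flag-FAK over Input (1.44, 1.75 and 3.19 without ribosomal DNA and 7SK) where both libraries have reads, so the sign against Input depends on it, while differences between hosts, which are taken from reads, are not rescaled. SNHG19 has 0 Flag-FAK reads, and there its value follows the 0.1 added: -10.75 with TPM and -15.20 without ribosomal DNA and 7SK in Flag-FAK over IgG, and -10.01 and -15.32 in Flag-FAK over Input. With TPM, Flag-FAK over IgG was -1.65 for GAS5 and 1.95 for SNHG7. IgG over Input was 1.46 for GAS5 and 0.74 for SNHG19 (both changed sign), -1.54 for SNHG7 and -1.44 for SNHG12. Flag-FAK over Input was -0.19 for GAS5, and 0.41 for SNHG7 and 0.84 for SNHG12 (both changed sign). With TPM without ribosomal DNA and 7SK, Flag-FAK over IgG was -1.41 for GAS5, 2.20 for SNHG7 and 2.53 for SNHG12. IgG over Input was 0.60 for GAS5 (changed sign), -2.41 for SNHG7, -2.31 for SNHG12 and -0.12 for SNHG19. Flag-FAK over Input was -0.81 for GAS5, -0.21 for SNHG7 and 0.22 for SNHG12 (changed sign).

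With the transcript of most Input reads alone (MSTRG.2662.4 for GAS5, MSTRG.706.1 for SNHG12), GAS5 was at -6.62 in Flag-FAK over IgG, -2.47 in IgG over Input and -9.08 in Flag-FAK over Input, and SNHG12 at -2.55 in Flag-FAK over IgG (from 1.01, so its sign changed) and -6.54 in Flag-FAK over Input. GAS5 minus SNHG7 was then -7.52, 1.67 and -5.84 in Flag-FAK over IgG, IgG over Input and Flag-FAK over Input. GAS5 minus SNHG19 was -1.58, -0.61 and -2.19, each with a changed sign (from 2.37, 0.70 and 3.07), GAS5 minus SNHG12 was 1.56 in IgG over Input, SNHG7 minus SNHG12 was 3.97 in Flag-FAK over IgG and 3.87 in Flag-FAK over Input (from -0.31 and -0.71, so both signs changed), and SNHG12 minus SNHG19 was 1.96 in Flag-FAK over IgG and -0.21 in Flag-FAK over Input, the latter with a changed sign. Several of these rest on 0 reads and on the added constant. A pseudocount of 1 gave -3.06 for SNHG12 in IgG over Input and -4.10 for SNHG19 in Flag-FAK over Input. With no minimum, 29 transcripts were above 2 in Flag-FAK over IgG. The other alternatives moved no value by more than its counting interval, including all 21 isoform shares taken from FPKM, and the 18 differences between hosts taken from FPKM.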
